A study of Mus musculus with 16 samples.

Results

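A set of 38 genes that mark endothelial cells and the blood-brain barrier was followed in mouse hypothalamus after diets of graded protein at 2 fat levels. The genes were chosen by symbol, with no measured value in the rule but with earlier results of these data known. All 38 were found among the 47069 genes of the deposited count table. They fall into 7 junction and adhesion genes, 8 receptors, 8 transporters, 4 genes of activation and clotting, 7 surface or secreted proteins and 4 transcription factors. The mice were of the inbred strain C57BL/6N, their hypothalamus was cut out and its total RNA sequenced, and the labels name no genetic change or drug, nor sex, age or time on diet. The 8 diets combined 1%, 2.5%, 5% or 20% of energy as protein with 60% or 20% of energy as fat, and every diet had 2 libraries. This gives 4 libraries at each protein level and 8 at each fat level. The comparisons ask how protein content acts on gene expression at each fat level. Whether both libraries of a diet are from different mice is not stated, so every p-value rests on the spread among these libraries, and that spread may be technical.

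Brain capillaries are lined by endothelial cells that are sealed by tight and adherens junctions, carry nutrients inward through solute carriers and return many drugs and lipophilic compounds to the blood through ATP-driven pumps. These properties are kept up by Wnt signals from neural cells and by contact with pericytes, while VEGF and angiopoietin receptors govern vessel growth and stability. In the hypothalamus most capillaries have such a barrier, but those of the median eminence are fenestrated and let blood-borne signals reach nearby cells.

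The libraries held between 17731242 and 18511818 counts, and 16646 genes, all 38 vessel genes among them, passed the filter on low counts. Markers of the hypothalamus, among them Npy, Pomc, Hcrt and Avp, were present in every library. At 1% protein, 3 of the 4 libraries (both at 60% fat and replicate 1 at 20% fat) had 1.54% to 1.78% of their counts on the mitochondrial genome, against 2.19% to 3.20% in the other 13 libraries. Their deviations from the 16-library average ran against gene length (Spearman correlation across genes of -0.26 to -0.17, against -0.14 to 0.32 in the others). At 20% fat, replicate 2 of 1% protein and replicate 2 of 2.5% protein carried more RNA of cortical markers, with 5074 and 10337 counts of the vesicular glutamate transporter Slc17a7, against 1267 to 2513 in the others. The diet codes start alike for 1% and 2.5% protein, and in another way for 5% and 20%, so the start of the code and the protein level cannot be told apart in 1% against 20% protein.

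At 1% protein the vessel genes were mostly lower than at 20% protein. Of the 38 genes, 20 fell, 3 rose and 15 did not pass edgeR's quasi-likelihood test (adjusted p under 0.05 over all genes tested), so 60.5% were called, against 14.3% of all genes. The genes that fell made up 52.6% of the set, against 6.01% of all genes, and those that rose 7.89%, against 8.26%. The median log2 change was -0.35 over the 38 genes and 0.0035 over all genes tested, and single genes ran from -1.68 for Thbd to 0.61 for Mfsd2a. In 21 of the 38 genes the 4 libraries at 1% protein did not overlap the 4 at 20% protein, with 3 above and 18 below, against 13.8% of all genes in either direction, 7.4% above and 6.35% below. A bulk measurement cannot tell fewer endothelial cells from less RNA per cell.

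**Figure D1:**
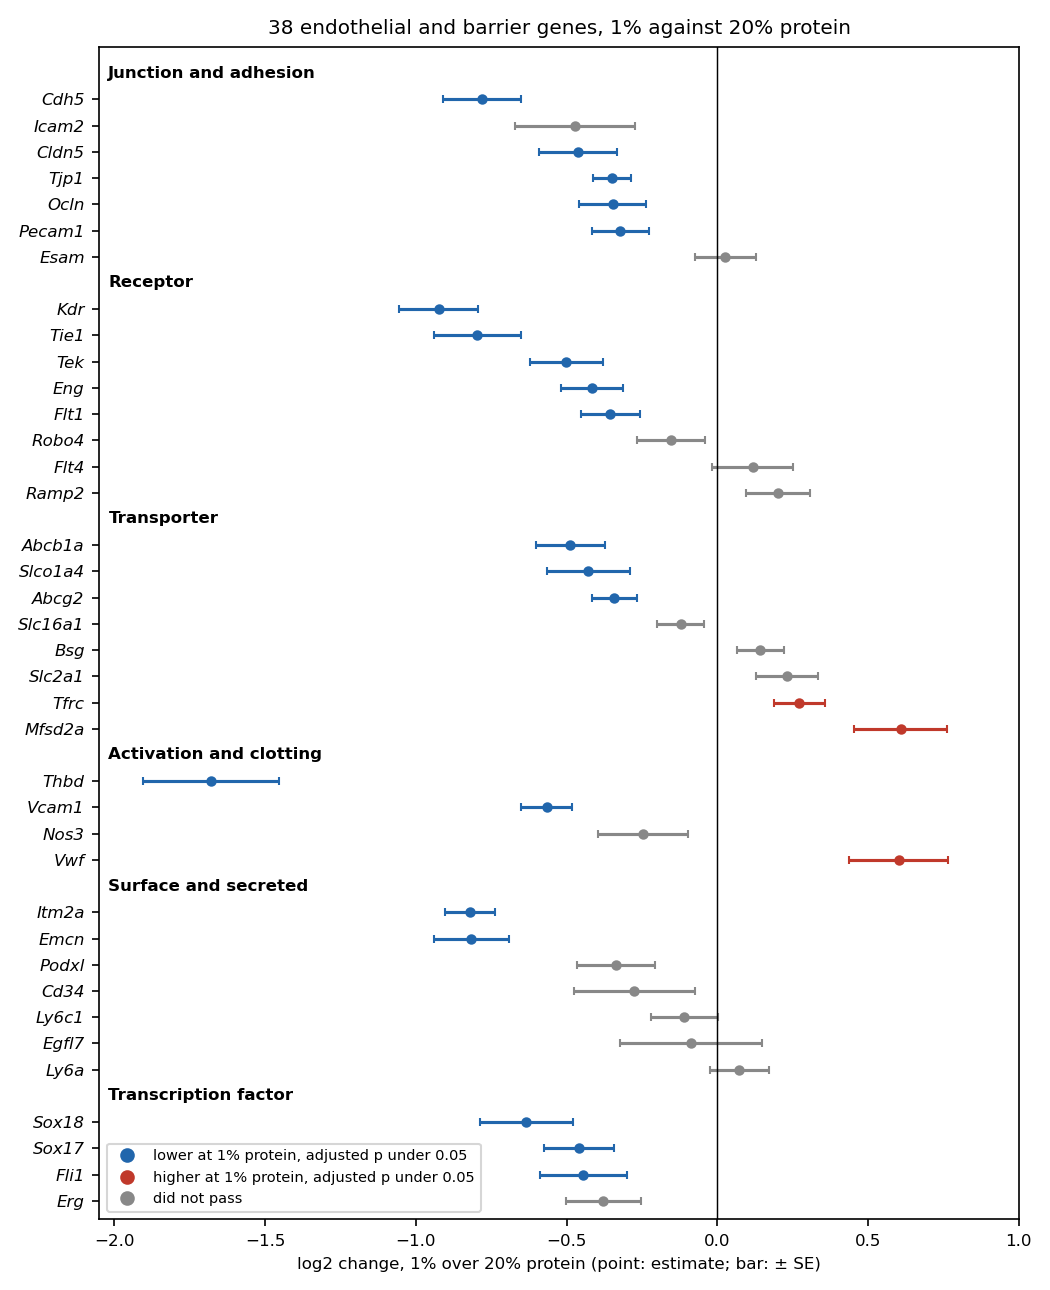
Log2 change of each of the 38 genes at 1% over 20% protein, grouped by role, with points for the estimate and bars for ± SE from edgeR's fit to 16 libraries. The 20 genes that fell, the 3 that rose (Mfsd2a, Vwf and Tfrc) and the 15 that did not pass are told apart by colour.

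Kdr, Tie1, Itm2a and Emcn fell at 1% against 20% protein under each of the 25 alternative settings run, and their promoters are shown because the result rests most firmly on these genes. The letters are the 250 bases before the start annotated in RefSeq (GRCm38.p6), read on the gene's strand. For Tie1 the gene span in GENCODE M21 (chr4:118471191-118490061) covers most of the window. For the other genes that span reaches only the window's edge. The Kdr window lies at chr5:75978456-75978705 (minus strand), that of Tie1 at chr4:118489850-118490099 (minus strand), that of Itm2a at chrX:107403361-107403610 (minus strand) and that of Emcn at chr3:137340828-137341077 (plus strand). Capitals mark AGGAAG or its reverse complement CTTCCT, a core that factors of the ETS family, such as Erg and Fli1, can bind.
Kdr: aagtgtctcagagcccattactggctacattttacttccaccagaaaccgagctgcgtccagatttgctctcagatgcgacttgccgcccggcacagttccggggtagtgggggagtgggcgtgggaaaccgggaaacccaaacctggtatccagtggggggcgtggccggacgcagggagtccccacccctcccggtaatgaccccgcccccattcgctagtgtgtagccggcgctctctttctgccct
Tie1: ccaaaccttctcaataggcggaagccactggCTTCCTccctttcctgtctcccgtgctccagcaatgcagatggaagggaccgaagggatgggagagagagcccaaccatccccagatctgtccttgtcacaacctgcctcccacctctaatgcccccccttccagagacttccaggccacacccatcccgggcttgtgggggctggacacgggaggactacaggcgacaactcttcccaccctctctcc
Itm2a: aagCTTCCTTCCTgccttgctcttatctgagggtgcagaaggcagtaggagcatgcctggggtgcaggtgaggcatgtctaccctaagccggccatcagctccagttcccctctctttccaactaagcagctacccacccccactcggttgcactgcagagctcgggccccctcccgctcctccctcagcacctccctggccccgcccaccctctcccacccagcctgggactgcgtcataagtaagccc
Emcn: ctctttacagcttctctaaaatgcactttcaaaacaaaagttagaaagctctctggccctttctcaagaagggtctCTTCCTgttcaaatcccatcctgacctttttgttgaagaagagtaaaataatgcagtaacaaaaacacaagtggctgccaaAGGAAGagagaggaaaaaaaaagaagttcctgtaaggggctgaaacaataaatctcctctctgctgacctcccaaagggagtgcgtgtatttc
The motif occurred 0 times in the Kdr window, 1 time in that of Tie1 and 2 times in each of the others, where the matches of Itm2a overlap. RefSeq windows from 250 bases before to 50 after the start were found for 23 of the 38 genes, 32 windows in all. The motif was in 56.2% of these 32 windows on either strand, against 35.4% of 32851 windows of all genes. A palindromic motif of the glucocorticoid receptor, GNACANNNTGTNC, was in 0 of the 32 windows and in 0.5% of all windows. At so low a share 0 of 32 is the likely count for any genes, so it does not set these apart.

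Junction and adhesion genes were led by Cdh5 (chr8:104101625-104144511), which encodes VE-cadherin, the adherens junction protein of endothelium. Gene positions are those of GENCODE M21 on GRCm38. Values per library are counts per 1000000 counts (CPM) after scaling for library composition, and the libraries of a protein level are listed with 60% fat (replicates 1 and 2) before 20% fat (replicates 1 and 2). Cdh5 had 7.99, 9.79, 9.62 and 9.98 CPM at 1% protein, against 14.1, 14.9, 17.2 and 18.2 CPM at 20% protein. All 4 libraries at 1% lay below all 4 at 20%, and the log2 change was -0.78 ± 0.13 (SE; adjusted p = 0.00136, edgeR's quasi-likelihood test). Cldn5 (chr16:18776847-18778262), the main claudin of the barrier's tight junctions, had 30.4, 25.8, 30.9 and 22.3 CPM at 1% protein, against 29.8, 41.5, 43.8 and 35.7 CPM at 20% protein. Replicate 1 of 60% fat with 20% protein lay among the libraries at 1%, so the groups overlapped, although the gene fell by 0.46 ± 0.13 on the log2 scale (adjusted p = 0.0284). Tjp1 (ZO-1, the scaffold below tight junctions) had 75.1, 77.7, 73.0 and 87.5 CPM at 1% protein, against 98.98, 95.2, 96.9 and 108 CPM at 20% protein. It fell by 0.35 ± 0.06 on the log2 scale (adjusted p = 0.00261), with no overlap. Pecam1 (CD31, an adhesion molecule of endothelial contacts) had 18.7, 17.9, 18.6 and 19.1 CPM at 1% protein, against 20.97, 24.1, 24.4 and 23.6 CPM at 20% protein, a fall of 0.32 ± 0.09 on the log2 scale with no overlap (adjusted p = 0.0342). Ocln (occludin, of tight junctions) fell by 0.35 ± 0.11 (adjusted p = 0.0457), likewise without overlap. Icam2, an adhesion ligand for leukocytes, had a log2 change of -0.47 ± 0.20 and did not pass (adjusted p = 0.117), although its 4 libraries at 1% protein lay below those at 20%. Esam, an endothelial adhesion molecule of the immunoglobulin family, stood at 0.03 ± 0.10 (adjusted p = 0.881). Of the 7 genes 5 fell.

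Of the 8 receptors 5 fell, namely Kdr, Tie1, Tek, Eng and Flt1, and the other 3 did not pass. Kdr (chr5:75932827-75978458), the main signalling receptor for VEGF-A, had 10.97, 8.16, 10.01 and 7.76 CPM at 1% protein, against 17.3, 17.4, 16 and 19.3 CPM at 20% protein, which was 1.90-fold lower (log2 change -0.92 ± 0.13, adjusted p = 0.000451). Tie1 (chr4:118471191-118490061), an orphan receptor that works with Tek, had 9.57, 9.40, 9.34 and 6.62 CPM at 1% protein, against 13.4, 15.9, 16.3 and 15.2 CPM at 20% protein (-0.80 ± 0.14, adjusted p = 0.00261). Neither gene's groups overlapped, and the lowest Tie1 value belonged to replicate 2 of 20% fat with 1% protein. Tek (the angiopoietin receptor Tie2), Eng (endoglin, a co-receptor of the TGF-beta family) and Flt1 (VEGF receptor 1, which can act as a decoy) fell by 0.50 ± 0.12, 0.42 ± 0.10 and 0.35 ± 0.10 on the log2 scale (adjusted p = 0.0153, 0.0167 and 0.0261). The groups overlapped for Tek and not for Eng or Flt1. Robo4, a guidance receptor of endothelium, had a log2 change of -0.15, Flt4 (VEGF receptor 3) 0.12 and Ramp2, a partner of the adrenomedullin receptor, 0.20, and these did not pass (adjusted p = 0.361, 0.574 and 0.204). The span of Eng overlaps the coding gene Fpgs and that of Ramp2 the coding gene Vps25, so their counts are uncertain to that extent.

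The transporters divided by direction, with 2 higher, 3 lower and 3 not called. Mfsd2a (chr4:122946850-122961188), which carries lysophosphatidylcholine with omega-3 fatty acids into the brain and holds back transcytosis, had 46.2, 64.7, 40.8 and 48.8 CPM at 1% protein, against 29.2, 31.3, 34.6 and 36.1 CPM at 20% protein. Every library at 1% exceeded every library at 20%, and the gene rose by 0.61 ± 0.15 on the log2 scale (adjusted p = 0.0179). Tfrc (chr16:32608920-32632794), the transferrin receptor that takes up iron, had 73.5, 69.9, 90.1 and 101 CPM at 1% protein, against 71.8, 70.2, 66.6 and 66.3 CPM at 20% protein. The libraries at 20% fat with 1% protein were the high ones, and 1 of those at 60% fat lay within the range at 20% protein. Over all libraries Tfrc rose by 0.27 ± 0.08 on the log2 scale (adjusted p = 0.0413).

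The Tfrc transcript is known for hairpins in its 3′ untranslated region, the iron-responsive elements, to which iron regulatory proteins bind when iron is scarce so that the mRNA is kept. They are shown because Tfrc is the gene of the set with this well-known sequence control. A search of that region (2461 bases, GENCODE M21, GRCm38) for a bulged C, a paired stem and the loop CAGTGN found 4 matches of 17 bases on the plus strand, with the loop in capitals. They start with chr16:32631225-32631241 and end with chr16:32631716-32631732.
Tfrc element 1: cggaagCAGTGCcttcc
Tfrc element 2: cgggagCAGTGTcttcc
Tfrc element 3: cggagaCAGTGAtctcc
Tfrc element 4: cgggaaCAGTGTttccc
A match of letters is a description, and binding was not measured here.

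The efflux pumps went the other way. Abcb1a (P-glycoprotein, chr5:8660077-8748575) had 11.8, 13.4, 14.9 and 19.1 CPM at 1% protein, against 19.5, 19.4, 20.5 and 23.3 CPM at 20% protein, and fell by 0.49 ± 0.11 on the log2 scale (adjusted p = 0.0123). Abcg2 (the breast cancer resistance protein) had 12.3, 12.3, 11.8 and 14.2 CPM at 1% protein, against 15.1, 14.5, 17.5 and 17.3 CPM at 20% protein, a fall of 0.34 ± 0.08 on the log2 scale (adjusted p = 0.00911). Neither pump's groups overlapped. Slco1a4, an organic anion transporter, had 20.4, 24.0, 30.9 and 40.4 CPM at 1% protein, against 40.7, 31.4, 36.2 and 44.5 CPM at 20% protein. The libraries at 60% fat with 1% protein were the low ones and the groups overlapped, with a fall of 0.43 ± 0.14 on the log2 scale that lay at the threshold (adjusted p = 0.0496). Slc2a1, the glucose transporter GLUT1, had 63.9, 70.8, 60.2 and 64.2 CPM at 1% protein, against 53.4, 55.1, 55.7 and 56.7 CPM at 20% protein. Its groups did not overlap, but the log2 change of 0.23 ± 0.10 did not pass (adjusted p = 0.136). Bsg (basigin, a chaperone of monocarboxylate transporters) and Slc16a1 (the monocarboxylate transporter MCT1) stood at 0.14 and -0.12 (adjusted p = 0.227 and 0.301). Basigin, GLUT1, MCT1 and the transferrin receptor are also made by glia or neurons, so their levels in bulk tissue are not those of endothelium alone.

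Among the genes of activation and clotting, Thbd (chr2:148404466-148408188) had the largest change of the 38. It encodes thrombomodulin, the endothelial receptor that turns thrombin towards activating protein C and so limits clotting. Thbd had 5.01, 4.84, 4.81 and 10.2 CPM at 1% protein, against 16.2, 20.7, 22.4 and 20.0 CPM at 20% protein. The library at 10.2 CPM, replicate 2 of 20% fat, stood apart from the other 3 at 1% protein and still lay below every library at 20% protein. The gene was 3.20-fold lower (log2 change -1.68 ± 0.23, adjusted p = 0.00032), and with replicate 2 of 20% fat as the only library at 1% protein it did not pass, as given with the library checks. Vcam1, an adhesion molecule for leukocytes, fell by 0.57 ± 0.08 on the log2 scale (adjusted p = 0.000646), to 16.6 ± 1.89 CPM at 1% protein, against 24.6 ± 1.82 CPM at 20% protein (SD, n = 4 each), and its groups did not overlap. Vwf (chr6:125546774-125686679), the von Willebrand factor that tethers platelets, moved the opposite way, with 23.6, 22.0, 26.6 and 35.8 CPM at 1% protein, against 16.9, 16.9, 18.1 and 18.8 CPM at 20% protein. No library at 1% protein overlapped those at 20%, and the rise was 0.60 ± 0.16 on the log2 scale (adjusted p = 0.0243). Nos3, the endothelial nitric oxide synthase, had a log2 change of -0.25 ± 0.15 (adjusted p = 0.268), with a span that overlaps the coding gene Atg9b.

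Of the 7 surface and secreted proteins Itm2a and Emcn passed and the other 5 did not. Itm2a (chrX:107397099-107403376), a small membrane protein, had 25.6, 27.2, 21.3 and 23.2 CPM at 1% protein, against 38.3, 43.0, 45.5 and 44.9 CPM at 20% protein (log2 change -0.82 ± 0.08). No gene of the 38 had a lower adjusted p than its 2.67e-05 (edgeR). Emcn (chr3:137341067-137432185), the sialomucin endomucin of capillaries and veins, had 2.81, 3.38, 2.38 and 2.50 CPM at 1% protein, against 5.05, 4.24, 5.14 and 5.01 CPM at 20% protein (-0.82 ± 0.13, adjusted p = 0.000834). In both genes all libraries at 1% protein lay below all at 20% protein. Podxl (podocalyxin) and Cd34, further sialomucins of the vessel lumen, had log2 changes of -0.34 ± 0.13 and -0.28 ± 0.20 (adjusted p = 0.089 and 0.362). Ly6c1 and Ly6a, surface proteins of the Ly6 family, stood at -0.11 and 0.07 and Egfl7, a secreted protein of the vessel matrix, at -0.09 (adjusted p = 0.528, 0.63 and 0.83). The span of Egfl7 overlaps the coding genes Gm20532 and Agpat2.

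Endothelial transcription factors were lower as well, with 3 of 4 called. Sox18 (chr2:181669836-181671640) had 7.54, 5.68, 6.08 and 5.16 CPM at 1% protein, against 8.55, 10.5, 10.8 and 8.00 CPM at 20% protein (log2 change -0.63 ± 0.16, adjusted p = 0.0159). Sox17, which like Sox18 belongs to the SoxF factors of vessel development, fell by 0.46 ± 0.12 (adjusted p = 0.0185), and the ETS factor Fli1 by 0.44 ± 0.14 (adjusted p = 0.0484). The groups did not overlap for any of these 3. The related ETS factor Erg, which keeps endothelial identity, had a log2 change of -0.38 ± 0.12 and missed the threshold (adjusted p = 0.0512).

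Across the protein series the mean was lowest at 1% protein for 29 of the 38 genes, and highest there for 6. The share over all genes was not computed, so these counts only describe the set. Thbd averaged 6.20 ± 2.63, 10.2 ± 2.71, 15.7 ± 3.03 and 19.8 ± 2.59 CPM at 1%, 2.5%, 5% and 20% protein (SD, n = 4 each). Kdr stepped likewise, with 9.22 ± 1.52, 13.5 ± 1.98, 15.8 ± 2.21 and 17.5 ± 1.36 CPM over the same 4 levels. In Itm2a and Emcn the level at 1% protein stood apart from the rest. Itm2a averaged 24.3 ± 2.60 CPM at 1% protein, and 37.7 ± 2.26, 39.0 ± 2.95 and 42.9 ± 3.27 CPM at 2.5%, 5% and 20%. Emcn had 2.77 ± 0.447 CPM at 1% protein, and 5.19 ± 0.459, 4.65 ± 0.303 and 4.86 ± 0.417 CPM at the higher levels, whose ranges over 4 libraries overlap one another. Vwf was highest at 1% protein but not ordered by protein, with 27.0 ± 6.14, 17.1 ± 5.33, 22.0 ± 3.92 and 17.7 ± 0.950 CPM over the 4 levels. Tfrc, with 83.5 ± 14.4, 76.7 ± 5.64, 75.8 ± 4.61 and 68.7 ± 2.73 CPM, had means over both fat levels that were higher with each step down. That order was seen at 20% fat (means of 95.4, 80.6, 76.5 and 66.4 CPM, n = 2 each). It was not seen at 60% fat (71.7, 72.7, 75.0 and 71.0 CPM).

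**Figure D2:**
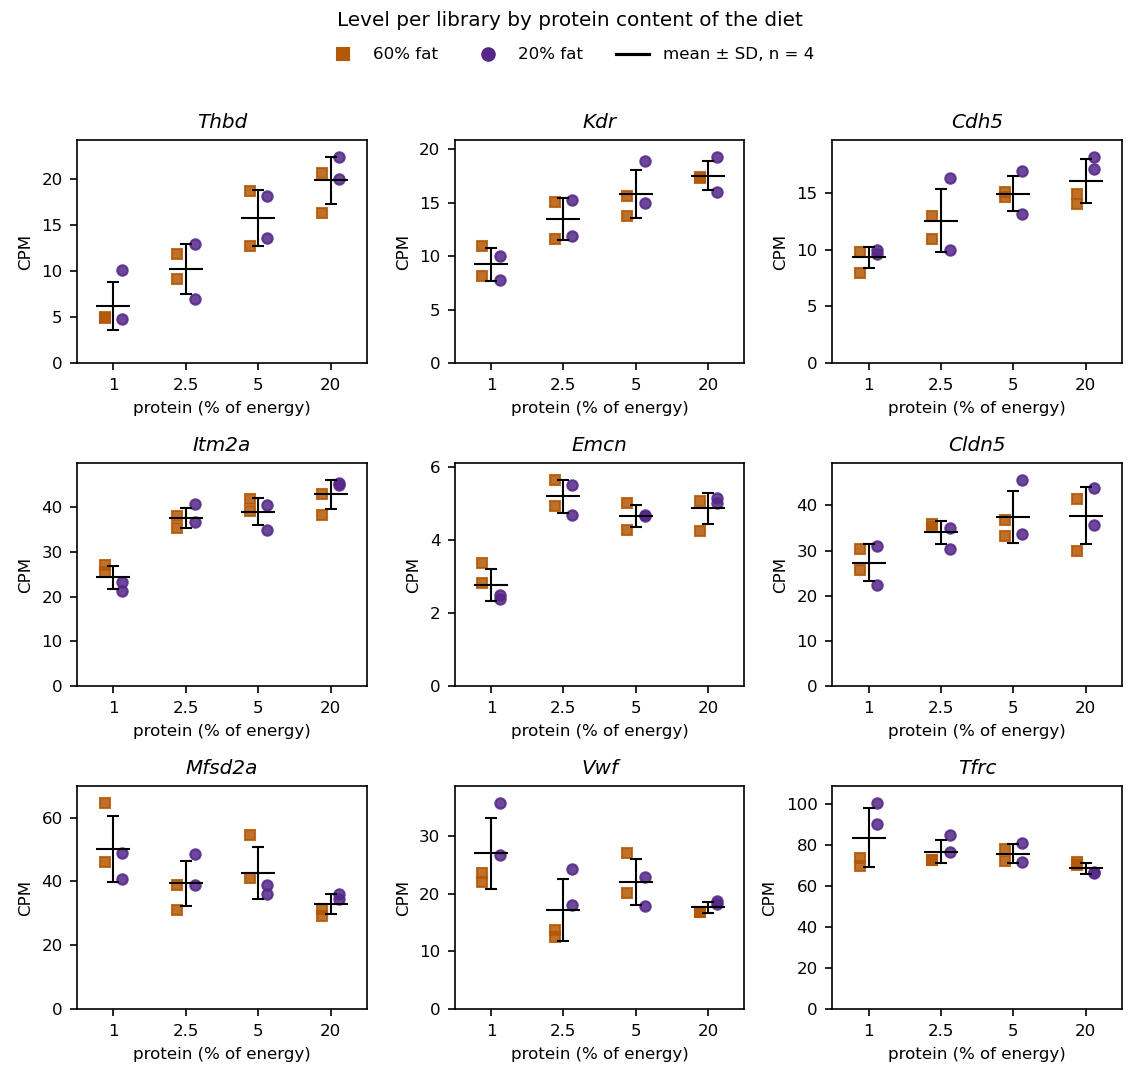
CPM in each library by protein content of the diet for 9 of the 38 genes, with one symbol for 60% fat and another for 20% fat, and lines for the mean ± SD of 4 libraries. Thbd and Kdr step down from 20% to 1% protein, Itm2a and Emcn are low at 1% protein, and Mfsd2a, Vwf and Tfrc have their highest means there.

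None of the 38 genes was called between the intermediate levels and 20% protein in edgeR's test. At 2.5% against 20% protein 0 genes of the set passed (0.00601% of all genes), and at 5% against 20% protein 0 passed (0.03% of all genes). At 2.5% against 20% protein 6 of the 38 had an unadjusted p under 0.05 in edgeR's test, as did 801 of the 16646 genes tested. At 5% against 20% protein 3 of the 38 did, and 501 of all genes. DESeq2, with adjusted p, called 1 and 0 of the 38 in these comparisons (0.156% and 0.03% of all genes). At 2.5% against 20% protein the largest change was that of Thbd (-0.95 ± 0.21, adjusted p = 0.21 with edgeR), and Thbd was the gene that DESeq2 called (adjusted p = 0.0135). The 38 log2 changes at 5% against 20% protein ran from -0.33 to 0.38. Both comparisons share the libraries at 20% protein with 1% against 20% protein.

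At 1% against 2.5% protein, whose diet codes start alike, 7 genes fell and 1 rose, 21.1% of the set against 2.32% of all genes (0.931% lower and 1.39% higher). Emcn fell by 0.91 ± 0.13, Itm2a by 0.63 ± 0.08 and Fli1 by 0.61 ± 0.14 on the log2 scale (adjusted p = 0.00127, 0.00104 and 0.0317). Tie1 fell by 0.57 ± 0.15, Kdr by 0.54 ± 0.13, Vcam1 by 0.42 ± 0.09 and Abcg2 by 0.39 ± 0.08 (adjusted p = 0.0496, 0.0388, 0.0177 and 0.0134). Vwf rose by 0.66 ± 0.16 (adjusted p = 0.0409). The median log2 change of the 38 was -0.24, against 0.0063 over all genes. This comparison takes in both libraries that carry cortical markers, and without them 12 genes fell and 3 rose, while the share of all genes called went up to 23.8%. Leaving out 1 library gave 3 to 15 calls. There were 3 without replicate 2 of 60% fat at 1% protein (0.622% of all genes), without replicate 2 of 60% fat at 2.5% protein (0.558%) or without replicate 1 of 20% fat at 1% protein (0.852%), and 15 without replicate 2 of 20% fat at 1% protein (25.1%). Emcn and Itm2a passed in each of the 24 alternatives run for this comparison, whereas Kdr, Tie1 and Vwf lost their calls in 10, 14 and 13 of them.

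Along the straight line on protein that the study's own model fits, 0 of the 38 genes passed edgeR's test (0.018% of all genes), and 0 with DESeq2. An unadjusted p under 0.05 in edgeR's test was found for 12 of the 38 and for 2435 of the 16646 genes tested. With protein on a log2 scale, which gives the steps between 1% and 5% more weight, 11 fell and 2 rose, against 7.88% of all genes called. Thbd led with -1.63 (log2 change of 1% over 20% protein along the line; adjusted p = 0.00132). Kdr, Itm2a, Cdh5, Vcam1, Tjp1, Sox18, Tie1, Eng, Sox17 and Abcb1a were the other genes that fell, and Tfrc and Mfsd2a rose. On the straight line, Tfrc alone of the 38 had a protein by fat interaction at an unadjusted p under 0.05 (0.00749, edgeR's quasi-likelihood test). Among the 16646 genes tested 472 did, a share close to that of the set.

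**Figure D3:**
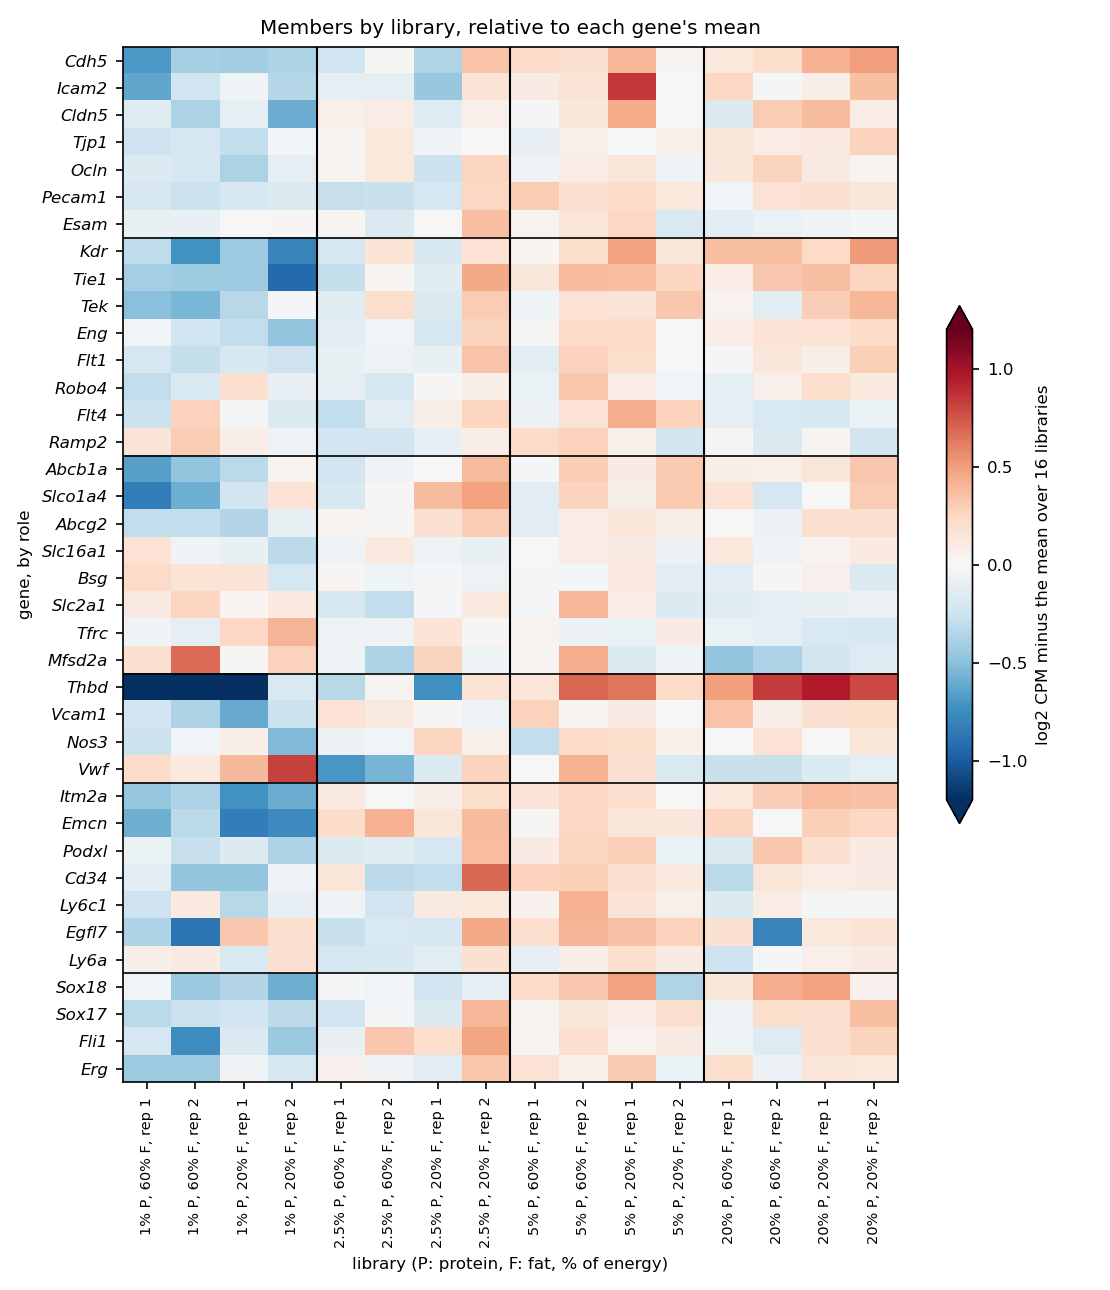
Log2 CPM of each of the 38 genes in each of the 16 libraries, minus the gene's mean over all libraries, with genes grouped by role and libraries ordered by protein from 1% to 20% and, within a level, 60% before 20% fat. The 4 columns at 1% protein lie below the mean for most genes and above it for Mfsd2a, Vwf and Slc2a1.

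Dietary fat had no called effect on the set. At 60% against 20% fat over all protein levels 0 of the 38 passed edgeR's test (0.00601% of all genes), and 0 passed with DESeq2. An unadjusted p under 0.05 in edgeR's test was found for 6 of the 38 and for 1297 of the 16646 genes tested. The largest log2 changes of the 38 were those of Egfl7 (-0.38 ± 0.16), Slco1a4 (-0.36 ± 0.10) and Vwf (-0.26 ± 0.12), with adjusted p = 0.628, 0.628 and 0.628. In 0 of the 38 genes the 8 libraries at 60% fat lay wholly above or below the 8 at 20% fat, against 0.03% of all genes.

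Within 60% fat, 7 genes fell and 1 rose at 1% against 20% protein, 21.1% of the set against 4.25% of all genes (2.28% lower and 1.97% higher). Within 20% fat 7 fell and 2 rose, 23.7% against 1.78% (1.18% lower and 0.601% higher). The 4 genes that fell at both were Thbd (-1.90 ± 0.33 at 60% fat and -1.50 ± 0.32 at 20% fat), Kdr (-0.86 ± 0.19 and -0.99 ± 0.19), Itm2a (-0.62 ± 0.10 and -1.02 ± 0.10) and Vcam1 (-0.51 ± 0.13 and -0.62 ± 0.13). Tjp1, Abcb1a and Slco1a4 passed at 60% fat. There Slco1a4 had -0.70 ± 0.18 (adjusted p = 0.0465), and -0.18 ± 0.17 at 20% fat (adjusted p = 0.66). Cdh5, Tie1 and Emcn passed at 20% fat. Emcn had -0.59 ± 0.17 at 60% fat (adjusted p = 0.0613) and -1.06 ± 0.18 at 20% fat (adjusted p = 0.00878). Mfsd2a rose by 0.87 ± 0.17 at 60% fat (adjusted p = 0.0238) and stood at 0.34 ± 0.17 at 20% fat (adjusted p = 0.366). Vwf and Tfrc rose at 20% fat, by 0.76 ± 0.18 and 0.52 ± 0.08 (adjusted p = 0.0462 and 0.00669), while at 60% fat Vwf stood at 0.44 ± 0.18 and Tfrc at 0.01 ± 0.08. Both libraries of 60% fat with 1% protein are of low mitochondrial share. Leaving out any 1 library gave 0 to 11 calls within 60% fat (0.0939% to 16.2% of all genes), with 0 or 1 when it was one of the 4 compared. The 11 calls came without either library of 20% fat with 1% protein, where 16.1% and 16.2% of all genes were called. Within 20% fat it gave 1 to 10 calls (0.311% to 4.73% of all genes), with 1 when either library at 20% protein was missing.

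**Figure D4:**
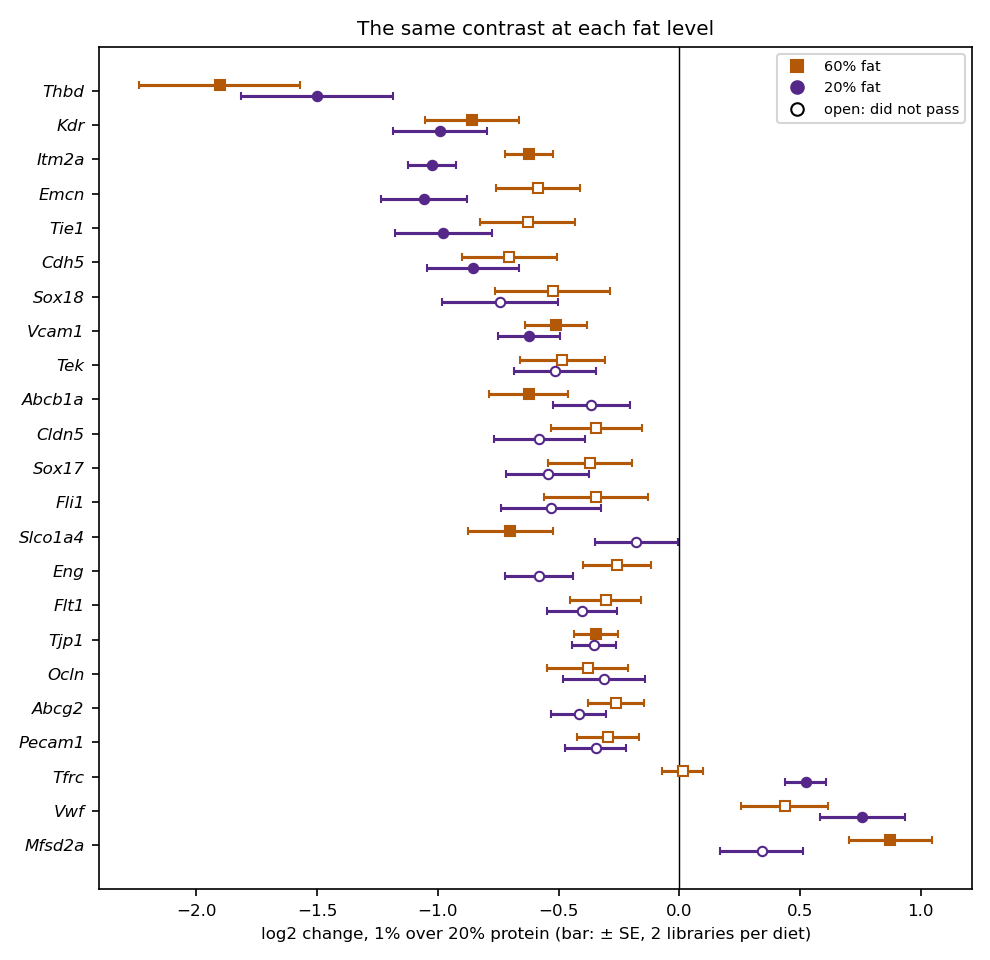
Log2 change at 1% over 20% protein within 60% fat and within 20% fat for the 23 genes called over both fat levels, with bars for ± SE. The 20 genes that fell lie below 0 at both fat levels, which is partly set by their choice from these same libraries. Tfrc lies at 0.01 at 60% fat and 0.52 at 20% fat.

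A test of the difference between the fat levels in 1% against 20% protein called 0 of the 38 genes and 0% of all genes in edgeR's test, and 0 of the 38 with DESeq2. Of the 38, 3 had an unadjusted p under 0.05 in edgeR's test, as did 1305 of the 16646 genes tested, a like share. Tfrc had a difference in log2 change of -0.51 ± 0.12 (60% minus 20% fat, adjusted p = 0.623), Itm2a 0.40 ± 0.14 and Mfsd2a 0.53 ± 0.24. A gene called at one fat level and not at the other is therefore not shown to differ between them.

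Other genes of the vessel wall were taken from lists that hold none of the 38, also chosen with earlier results known. Of 14 further pan-endothelial genes tested, 5 fell and 0 rose at 1% against 20% protein, with a median log2 change of -0.36. Over all genes tested, 6.01% fell and 8.26% rose. Mmrn2, an endothelial matrix protein, had 2.36, 2.70, 2.93 and 2.44 CPM at 1% protein, against 4.89, 5.49, 5.24 and 5.44 CPM at 20% protein (-1.01 ± 0.16, adjusted p = 0.000889). Ushbp1, Cyyr1, Ptprb (the phosphatase VE-PTP) and Fgd5 fell by 0.69, 0.62, 0.47 and 0.23 on the log2 scale. Of 23 genes of VEGF, angiopoietin, Notch and apelin signalling, 6 fell and 0 rose (median -0.27). Vegfa, the ligand of Kdr, had 80.0, 79.6, 79.7 and 89.0 CPM at 1% protein, against 104, 96.7, 101 and 104 CPM at 20% protein. All its libraries at 1% lay below those at 20%, and it fell by 0.31 ± 0.06 on the log2 scale (adjusted p = 0.00679). The VEGF co-receptors Nrp1 and Nrp2 fell by 0.58 and 0.27, the guidance receptor Unc5b by 0.45, and the arterial ligand Efnb2 and the Notch ligand Jag1 by 0.35 and 0.32 on the log2 scale.

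Wnt signalling that keeps the barrier had 4 of 18 genes lower and 0 higher (median -0.09). The shares over all genes, for this list and those that follow, were 6.01% lower and 8.26% higher. Wnt7a, a ligand that neural cells give to vessels, fell by 0.62 ± 0.13 (adjusted p = 0.00585), Foxf2, a factor of brain pericytes, by 0.45, the Wnt target and inhibitor Apcdd1 by 0.31 and the co-receptor Lrp6 by 0.26 on the log2 scale. Of 17 other junction genes 4 fell and 0 rose (median -0.12), namely Cgnl1 (paracingulin), Lsr (angulin-1), F11r (JAM-A) and Jam2, by 0.48, 0.43, 0.34 and 0.25 on the log2 scale. Other barrier transporters had 6 lower and 1 higher of 25 (median -0.05). Slc38a5, a carrier of glutamine and other neutral amino acids, had 1.46, 0.900, 0.885 and 1.52 CPM at 1% protein, against 1.88, 3.70, 3.41 and 3.31 CPM at 20% protein (-1.36 ± 0.23, adjusted p = 0.00178). Slc22a8, an organic anion transporter, fell by 1.10 ± 0.14 (adjusted p = 0.000211), Slco1c1, an organic anion transporter that carries thyroxine, by 0.51, and the iron exporter Slc40a1 (ferroportin) by 0.50. The creatine carrier Slc6a8 rose by 0.20 ± 0.06 (adjusted p = 0.0352).

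Genes of endothelial activation, clotting and caveolae showed 3 lower and 1 higher of 18 (median -0.01), against 6.01% lower and 8.26% higher of all genes. Mcam (CD146), Tfpi (the tissue factor pathway inhibitor) and Il6st (the gp130 receptor) fell by 0.76, 0.63 and 0.28 on the log2 scale. Lcn2, an acute-phase protein, rose by 2.60 ± 0.83 (adjusted p = 0.0467), with 0.619, 0.113, 0.498 and 5.70 CPM at 1% protein, against 0.376, 0.217, 0.270 and 0.160 CPM at 20% protein. Replicate 2 of 20% fat with 1% protein alone was high, and the other 3 libraries at 1% overlapped those at 20%. Over the 14 lists, 13 of 215 genes were listed at 0 counts in all 16 libraries, among them Angpt2, Slc7a5 and Cav1, but also Gfap and P2ry12, which abundant glial cells express, so a listed 0 is not read as absence.

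Markers of other cell types moved beside the vessel genes. Their counts stand against 6.01% of all genes lower and 8.26% higher at 1% against 20% protein. Fibroblast and meningeal markers had 10 of 12 genes lower and 0 higher at 1% against 20% protein (median -0.92), with a summed level of 192 to 298 CPM at 1% protein, against 347 to 411 CPM at 20% protein. The collagens Col3a1 and Col1a1 and the transporter Slc22a6 fell by 1.44, 1.17 and 1.49 on the log2 scale. Mural cell markers had 5 lower and 2 higher of 16 (median -0.11), and summed to 249 to 274 CPM at 1% protein, against 298 to 318 CPM at 20% protein. Rgs5 of pericytes and Acta2 and Myh11 of smooth muscle fell by 0.64, 0.64 and 0.61, while the pericyte channel subunit Kcnj8 rose by 0.65 on the log2 scale. The further pan-endothelial genes summed to 144 to 165 CPM at 1% protein, against 176 to 196 CPM at 20% protein. Microglia and macrophage markers had 2 lower and 0 higher of 8, and summed to 145 to 197 CPM at 1% protein, against 181 to 202 CPM at 20% protein. Astrocyte and tanycyte markers had 2 higher and 1 lower of 9, with overlapping sums of 2011 to 2226 CPM at 1% protein, against 2112 to 2349 CPM at 20% protein. Aqp4, the water channel of astrocyte endfeet on capillaries, was the one that fell, by 0.86 ± 0.13 on the log2 scale (adjusted p = 0.000692).

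Blood cell markers had 0 of 4 called, against 14.3% of all genes (6.01% lower and 8.26% higher). They summed to 41.9 to 52.8 CPM at 1% protein, against 34.9 to 57.1 CPM at 20% protein. Choroid plexus markers had 1 higher and 0 lower of 8, Ttr, and summed to 56.3 to 268 CPM at 1% protein, against 52.2 to 64.0 CPM at 20% protein. Cortical and hippocampal markers had 0 of 10 called and summed to 598 to 877 CPM at 1% protein, against 566 to 614 CPM at 20% protein, and hypothalamic markers had 3 higher and 4 lower of 15. The marker genes Ogn of fibroblasts, P2ry12 of microglia, Alas2 of red cells, Kcnj13 of choroid plexus and Gfap of astrocytes were listed at 0 counts. The part of these cell types in the result was not tested. Without the 3 libraries of low mitochondrial share, 2 fibroblast and meningeal markers, 0 mural markers, 2 microglia markers and 1 of the further pan-endothelial genes fell.

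**Figure D5:**
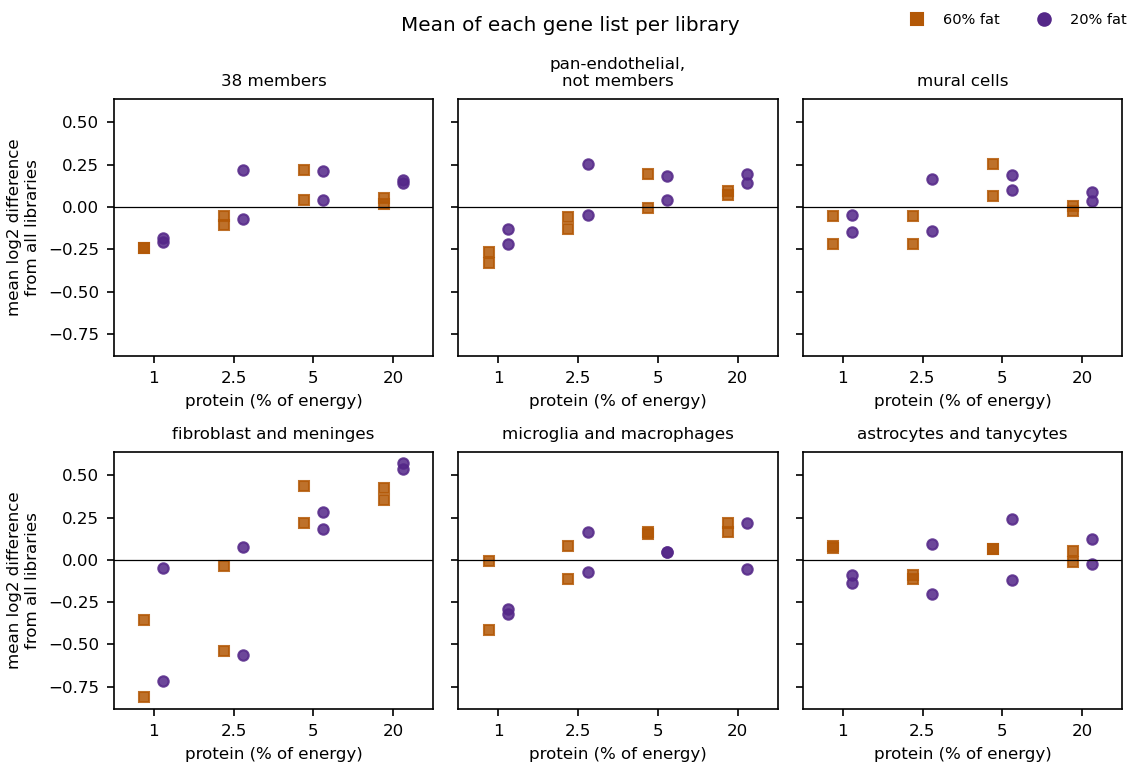
Mean log2 difference from the average of all libraries for the genes of 6 lists in each library, by protein content of the diet, with one symbol for 60% fat and another for 20% fat. The 38 genes and the further pan-endothelial genes are below 0 in all 4 libraries at 1% protein, as are mural, fibroblast and microglia markers, while astrocyte and tanycyte markers lie on both sides of 0.

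Scaling to the further pan-endothelial genes sets the 38 genes against other endothelial genes, although several of the transporters are also made by other cells. The scale is the summed CPM of that list, so its genes with more counts weigh more. Adgrf5 made up 44.5 of 157 CPM at 1% protein and 42.5 of 182 CPM at 20% protein (means, n = 4 each). A gene called lower on this scale is not thereby shown to fall beyond the list's median log2 change of -0.36. On that scale the median log2 change of all genes at 1% against 20% protein moved to 0.22 and that of the 38 to -0.13. Of the 38 genes 9 fell (Thbd, Kdr, Itm2a, Emcn, Tie1, Cdh5, Sox18, Vcam1 and Abcb1a) and 7 rose (Mfsd2a, Vwf, Tfrc, Slc2a1, Ramp2, Bsg and Ly6a), against 35.9% of all genes called. Relative to the median of all genes, the 7 that rose lay between 0.07 for Ly6a and 0.60 for Mfsd2a on the log2 scale. Cldn5, Pecam1, Ocln, Tjp1, Flt1, Tek, Eng, Abcg2, Slco1a4, Sox17 and Fli1 no longer passed.

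Libraries that stand apart bear on the count of calls. Without the 3 libraries of low mitochondrial share, 1% protein is represented by replicate 2 of 20% fat alone, which carries cortical markers and is assumed to vary like the other libraries. Then 6 genes fell (Tie1, Kdr, Emcn, Itm2a, Cldn5 and Eng) and Tfrc rose at 1% against 20% protein, against 2.37% of all genes called, with a median log2 change of -0.31 over the 38. Thbd had -1.001 in that fit (adjusted p = 0.0964), Abcb1a -0.21 (adjusted p = 0.602), Slco1a4 -0.06 (adjusted p = 0.924) and Mfsd2a 0.53 (adjusted p = 0.234). Without the 2 libraries that carry cortical markers, 21 genes fell and 3 rose, against 34.8% of all genes called; Bsg, Podxl and Erg then passed, while Tfrc (adjusted p = 0.0697) and Fli1 did not.

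Leaving out any 1 library left 12 to 23 of the 38 genes called at 1% against 20% protein, while the share of all genes called ran from 5.52% to 33%. At 20% protein, omitting replicate 2 of 20% fat gave 12 calls (5.64% of all genes) and omitting replicate 2 of 60% fat gave 13 (7.95%). At 1% protein, omitting replicate 2 of 60% fat gave 15 calls (5.74%), as did omitting replicate 1 of 20% fat (5.52%). Omitting replicate 2 of 20% fat at 1% protein gave 23 calls, with 33% of all genes called. Of the genes called, Fli1 lost its call in 18 of the 25 alternatives, and Ocln, Slco1a4 and Tfrc in 16 each.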

How the data were processed

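RNA of the hypothalamus from 8 diets was sequenced in 16 libraries, 2 per diet. The deposited values are raw read counts per gene, made by the authors with FastQC, HISAT2 2.1.0, SAMtools 1.2 and featureCounts (Subread 5.0) on GRCm38; these names come from the submitters' processing notes, which name no strand setting. Total counts per library were close to one another, and no replicate pair agreed within sampling noise. Levels were not compared between genes, since the length in the file is the whole gene span for 35 of the 38.

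Low genes were removed with filterByExpr of edgeR (by diet, minimum count 10), and counts were scaled by the trimmed mean of M values and tested with edgeR 4.0.16 (R 4.3.3), by the quasi-likelihood F-test with Benjamini-Hochberg adjustment over 16646 genes at 0.05. One model had protein as 4 levels plus fat, and another the 8 diets. A further one followed the study's protein slope with its interaction dropped where its p exceeded 0.05. SE is the size of the log2 change divided by the square root of F. CPM are counts per 1000000 after scaling, with a prior count of 2 where logged.

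Alternatives were median-ratio scaling, DESeq2 1.42.0, no filter, a minimum count of 50, the replicate block, removal of the trend with gene length (lowess span 0.3), scaling to other endothelial genes, log2 protein, and leaving out libraries. The 38 genes and the other lists were chosen with earlier results of these data known. All 38 could be named. Of every other list at most 6 genes past the threshold at 1% against 20% protein, those with the largest change, could be named, and marker genes where their values stand beside a result. Only the main edgeR fit of 1% against 20% protein was tested on simulated counts.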

Additional observations from a re-analysis of the deposited data

Results flagged for a closer look

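Within a protein level, 12 values of 11 of the 38 genes lay far from the other 3 libraries, of 152 groups of 4 libraries examined (by Dixon's gap over the range). Chance flags about 1 in 20 such groups. At 2.5% protein, replicate 2 of 20% fat, a library that carries cortical markers, was highest for Pecam1 (25.5 CPM, against 17.7 to 18.6 CPM in the others), Flt1 (76.9 CPM, against 56.8 to 58.1 CPM), Podxl (38 CPM, against 25.6 to 26.6 CPM), Ly6a (18.6 CPM, against 14.3 to 15.0 CPM) and Egfl7 (1.69 CPM, against 1.03 to 1.09 CPM). Replicate 1 of the same diet was lowest for Cldn5 (30.2 CPM, against 35.1 to 35.8 CPM).

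At 1% protein, replicate 2 of 20% fat, which carries cortical markers too, was highest for Thbd (10.2 CPM, against 4.81 to 5.01 CPM) and lowest for Tie1 (6.62 CPM, against 9.34 to 9.57 CPM). At 20% protein, replicate 2 of 60% fat was lowest for Emcn (4.24 CPM, against 5.01 to 5.14 CPM) and Egfl7 (0.707 CPM, against 1.35 to 1.4 CPM), and replicate 1 of 60% fat for Cd34 (2.31 CPM, against 3.08 to 3.21 CPM). Icam2 was highest in replicate 1 of 20% fat at 5% protein (3.58 CPM, against 1.99 to 2.23 CPM).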

How the results depend on the processing

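At 1% against 20% protein, where 23 of the 38 genes were called, median-ratio scaling called 23, DESeq2 21, no filter 21, a minimum count of 50 gave 23, removal of the length trend 18, scaling to other endothelial genes 16 and leaving out the cortex-marker libraries 24; without the low mitochondrial libraries it was 7. The share of all genes called was 8.25% to 17% with the other scaling, tool, filters and length correction, 35.9% with endothelial scaling, 34.8% without the cortex-marker libraries and 2.37% without those of low mitochondrial share. No called change reversed its direction in any of these fits. At 2.5% against 20% protein DESeq2 and no filter called 1, Thbd (0.156% and 0.0978% of all genes). The fit without cortex-marker libraries called 2, Thbd and Pecam1 (0.295% of all genes). At 1% against 2.5% protein DESeq2 called 14 (4.86% of all genes, against 2.32% with edgeR) and the fit without cortex-marker libraries 15 (23.8%). Within 60% fat that fit called 14 (16.9%, against 4.25% with all libraries). The slope had 1 call, Thbd, when scaled to other endothelial genes (0.24% of all genes) and 13 on a log2 scale of protein (7.88%).

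Leaving out 1 library in turn gave 12 to 23 calls at 1% against 20% protein (5.52% to 33% of all genes). It gave 0 to 1 at 2.5% against 20% (0% to 0.1%) and 3 to 15 at 1% against 2.5% (0.558% to 25.1%). Within 60% fat it gave 0 to 11 (0.0939% to 16.2%), and within 20% fat 1 to 10 (0.311% to 4.73%). There were 0 for 5% against 20% protein, fat, the difference between fat levels and the slope. Within 60% fat the count was 0 without replicate 2 of 1% protein or replicate 2 of 20% protein, and 1 without replicate 1 of either. Within 20% fat it was 1 without either library of 20% protein. Omitting replicate 2 of 1% protein at 20% fat gave the 15 calls at 1% against 2.5% protein.

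Replicate numbers showed no pairing of the samples over all diets. Over 28 pairs of diets the deviations of same-numbered libraries correlated at -0.170 to 0.339 (median 0.020), with 7 over 0.1. A pairing among part of the diets was not tested. With the replicate block, 24 genes were called at 1% against 20% protein (16.7% of all genes), 12 at 1% against 2.5% (3.44%), 10 within 60% fat (11.2%) and 11 within 20% fat (2.19%). With 2 libraries per diet, the SE at 1% against 20% protein reached 0.24 for Egfl7, a gene of few counts.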
